A study of Homo sapiens with 4 samples.

Results

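The MARCH genes encode RING-CH ubiquitin ligases, and most of them span a cell membrane. They were chosen from the deposited expression table as the rows of this gene family, on the contrast of LDB1 knockdown against control. In the table, their names had been turned into dates, so 2-Mar stood for MARCHF2, 3-Mar for MARCHF3, 5-Mar for MARCHF5, 6-Mar for MARCHF6, 7-Mar for MARCHF7, 8-Mar for MARCHF8 and 9-Mar for MARCHF9. The Ensembl identifier of each row was therefore used to settle its identity. The family had 9 rows among 28412 genes, and 7 of them averaged 1 FPKM or more in the 4 libraries. FPKM counts fragments relative to the length of the gene and to the depth of sequencing, so levels of different genes can be compared on it. Just inside that limit was MARCHF9, with a mean of 3.29 FPKM, and just outside it was MARCHF1, with 0.880 FPKM. MARCHF10 was the other row outside it. MARCHF4 and MARCHF11 were not analysed here.

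The date names also hid rows of another family. Both 1-Mar and 2-Mar stood for 2 rows each. The second row under 1-Mar was MTARC1 (ENSG00000186205) and the second under 2-Mar was MTARC2 (ENSG00000117791), which encode mitochondrial amidoxime-reducing enzymes formerly called MARC1 and MARC2. MTARC1 was at 0.00668 and 0.0293 FPKM in the controls and at 0.0539 and 0.0357 FPKM after knockdown. MTARC2 was at 0.0476 and 0 FPKM in the controls and at 0.0481 and 0.0509 FPKM after knockdown. Both genes were close to 0 in every library, so a row picked by the name 2-Mar alone could hold a gene that was barely detected in place of MARCHF2.

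RNA-seq was performed on human leukemia cells labelled NB4, a line from acute promyelocytic leukemia. There were 4 libraries. In 2 of them the cells carried the lentiviral control vector sh-NC, which the labels describe as no treatment and genotype control, and in 2 a vector with an shRNA that targets LDB1 (sh-LDB1). LDB1 is a LIM domain-binding protein. It forms complexes with the scaffold protein LMO2 and with DNA-binding factors such as GATA1 and TAL1. The authors report that both lentiviral vectors were introduced into the cells. Their general methods add puromycin selection of infected cells, without tying it to these libraries in particular. Several shRNAs against LDB1 were designed, and the sources used here do not state which one was sequenced. Nothing states that the 2 libraries of a group came from separate cultures, so the p-values measure only the spread between these samples, which may be technical.

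RING-CH ligases attach ubiquitin to membrane proteins and send them to the lysosome or the proteasome. They were found through their likeness to viral ligases that remove immune receptors from the surface of an infected cell. Like other RING ligases, they act with E2 enzymes, which carry the activated ubiquitin, and in blood cells they are best known for controlling MHC molecules, costimulatory receptors and the transferrin receptor.

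The libraries held between 16342323 and 19066497 reads, as recovered from the steps of the FPKM values. LDB1 was at 135.1 and 120.1 FPKM in sh-NC, against 10.3 and 9.48 FPKM in sh-LDB1, which is 7.73% of the control mean. The cell type label was checked against marker genes. Of 12 erythroid genes, 11 were tested and all 11 fell by more than 2-fold (limma, adjusted p below 0.05), and their summed level went from 3973 and 4140 FPKM to 388 and 351.6 FPKM. Embryonic zeta globin HBZ alone was at 1543 and 1600 FPKM in sh-NC, against 58.9 and 61.3 FPKM after knockdown. Of 12 promyelocytic and granulocytic genes, 10 were in the table and 8 were tested. MPO and CTSG were not in the table. On the log2(FPKM + 1) scale, 4 rose by more than 2-fold and 0 fell. Of all tested genes, 9.5% were called higher and 10.3% lower. By the adjusted p alone, 5 rose and 0 fell, beside 29.9% and 37.4% of all tested genes. The tested genes not past it were CEBPE and FUT4, which were lower, and CD33, which was higher. CEBPE went from 1.551 and 1.265 FPKM to 0.924 and 0.340 FPKM (limma adjusted p = 0.081). FUT4 went from 4.29 and 4.11 FPKM to 3.61 and 3.33 FPKM (limma adjusted p = 0.0528). CD33 went from 0.910 and 0.840 FPKM to 1.22 and 1.449 FPKM (limma adjusted p = 0.104). AZU1 was 2.42-fold higher by its mean FPKM but under 2-fold on the log2 scale. The filter had a part in the count of 4. ITGAM, among them, had 0.0217 and 0.0596 FPKM in the controls and passed the filter only through 4.89 and 4.94 FPKM after knockdown. MS4A3 did not pass it. The summed level of the 10 genes was 17.4 and 15.9 FPKM in sh-NC, against 49.9 and 46.1 FPKM in sh-LDB1. Besides ITGAM, the 4 were LYZ, CSF3R and PRTN3. LYZ went from 5.85 and 5.61 FPKM to 19.3 and 19.1 FPKM. CSF3R went from 1.10 and 1.08 FPKM to 9.46 and 8.49 FPKM, and PRTN3 from 1.29 and 1.18 FPKM to 5.50 and 4.50 FPKM. ELANE (neutrophil elastase), not tested, was at 0 except in sh-LDB1 replicate 1, where it was at 0.182 FPKM. MS4A3 was at 0.472 and 0.0971 FPKM in sh-NC, against 0 in both sh-LDB1 libraries. The control cells thus carried high erythroid RNA and little RNA of the labelled lineage, and this moved with the groups. Its part in the MARCH values was not tested, and in bulk samples fewer cells of a type and less RNA per cell cannot be told apart.

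MARCHF6 and MARCHF7 were the most abundant members in the controls. In sh-NC, the order of the mean levels was MARCHF6, MARCHF7, MARCHF3, MARCHF5, MARCHF8, MARCHF2, MARCHF9, MARCHF1 and MARCHF10. The ranges of MARCHF3 and MARCHF5 overlapped, as did those of MARCHF8 and MARCHF2, and the other neighbours in this order did not overlap. In sh-LDB1, the order was MARCHF6, MARCHF2, MARCHF7, MARCHF8, MARCHF3, MARCHF5, MARCHF9, MARCHF1 and MARCHF10, where MARCHF2 overlapped MARCHF7 and MARCHF3 overlapped MARCHF5. MARCHF2 stood in place 6 in the controls and in place 2 after knockdown.

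**Figure D1:**
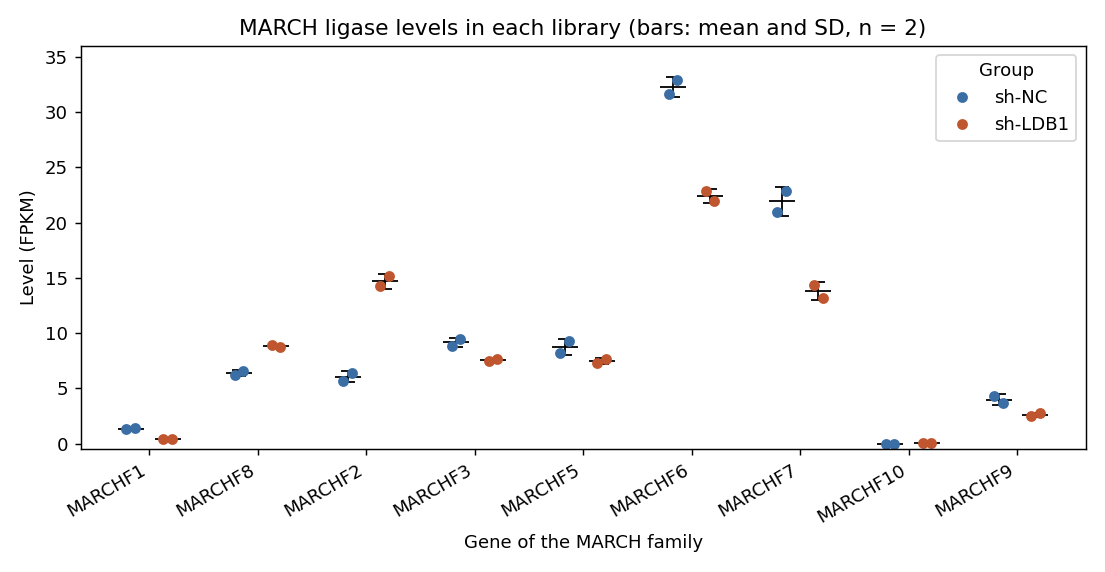
Level of each MARCH gene in FPKM (vertical axis) in the 2 sh-NC and the 2 sh-LDB1 libraries (points), with bars for the mean and SD of each group. MARCHF2 stands at 5.69 and 6.43 FPKM in sh-NC, against 14.2 and 15.2 FPKM in sh-LDB1, while MARCHF6 and MARCHF7 are lower in sh-LDB1.

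The differences between the groups were taken on the scale log2(FPKM + 1), which understates the change of low genes. Throughout, a gene was called past 2-fold by this scale and not by the ratio of its mean FPKM. They were fitted with limma over all 13300 genes that averaged 1 FPKM or more. Because the family was chosen on this very contrast, its values are given as a description and without a test. By the rule of an adjusted p below 0.05 and a change over 2-fold, 1 member was higher and 0 were lower, while 9.5% of all tested genes were called higher and 10.3% lower. By the adjusted p alone, 2 members were higher and 4 lower, beside 29.9% and 37.4% of all tested genes. The groups did not overlap in any of the 7 members, with 2 higher and 5 lower, and they did not overlap in 38.3% of all tested genes in the higher direction and in 46.3% in the lower one. Without sh-LDB1 replicate 1, or without sh-LDB1 replicate 2, the count by adjusted p alone was 2 higher and 2 lower, with MARCHF3 and MARCHF9 no longer past it. Nothing is read from these counts, since the choice of the family used them.

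MARCHF2 (ENSG00000099785, chr19:8413270-8439017, plus strand, GRCh38) encodes an endosomal ligase that has been linked to syntaxin 6 and to receptor traffic. It was at 5.69 and 6.43 FPKM in sh-NC, against 14.2 and 15.2 FPKM in sh-LDB1, from 204, 210, 505 and 509 reads. The mean was 6.06 ± 0.522 FPKM for sh-NC and 14.7 ± 0.676 FPKM for sh-LDB1 (SD, n = 2), a 2.43-fold higher level in sh-LDB1. On the log2 scale the difference was 1.16 with an SE of 0.0759. Both sh-LDB1 libraries lay far above both controls. MARCHF2 was the only one of the 7 members past 2-fold.

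MARCHF3 (ENSG00000173926, chr5:126867714-127030558, minus strand) is the closest relative of MARCHF2 and also encodes an endosomal ligase. It was at 8.85 and 9.47 FPKM in sh-NC, against 7.51 and 7.66 FPKM in sh-LDB1, so it lay in the other direction. Its mean in sh-LDB1 was 82.8% of that in sh-NC, with a log2 difference of -0.24 (SE 0.0582). The ratio of MARCHF2 to MARCHF3 within a library, which does not depend on how the libraries are scaled, was 0.643 and 0.679 in sh-NC, compared with 1.89 and 1.98 in sh-LDB1. Their summed level was 15.2 ± 0.955 FPKM in sh-NC, against 22.3 ± 0.780 FPKM after knockdown (SD, n = 2). The more abundant of the pair was therefore MARCHF3 in every control and MARCHF2 in every knockdown library.

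MARCHF8 (ENSG00000165406, chr10:45454585-45594906, minus strand) encodes a lysosomal and endosomal ligase known to act on the transferrin receptor, MHC class II and CD86. It was at 6.23 and 6.59 FPKM in sh-NC, against 8.92 and 8.73 FPKM in sh-LDB1, from 760, 733, 1077 and 996 reads. The mean was 1.38-fold higher in sh-LDB1, with a log2 difference of 0.41 (SE 0.0570). Of the 7 members, it was the other one whose sh-LDB1 libraries both lay above both controls.

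MARCHF1 (ENSG00000145416, chr4:163524298-164384050, minus strand) is the close relative of MARCHF8 and acts on MHC class II in antigen-presenting cells. It was at 1.28 and 1.43 FPKM in sh-NC, against 0.431 and 0.387 FPKM in sh-LDB1, from 215, 219, 72 and 61 reads. Its mean in sh-LDB1 was 30.3% of the control, the lowest share among the members detected in both groups. Its controls lay above the limit of 1 FPKM and its sh-LDB1 libraries below it, so it was not among the 7 members, and fitted without that filter its log2 difference was -0.74 (SE 0.116). The pair thus moved apart. MARCHF8 was 4.89 and 4.63 times as abundant as MARCHF1 in sh-NC, compared with 20.7 and 22.6 times in sh-LDB1. Their summed level was 7.76 ± 0.363 FPKM in sh-NC, against 9.23 ± 0.163 FPKM after knockdown (SD, n = 2).

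Promoter windows are shown so that both starts of MARCHF2 can be set beside those of MARCHF3, which was lower in sh-LDB1, and of MARCHF8, which was higher like MARCHF2. Each window runs from 250 bases before to 50 bases after a RefSeq start on GRCh38.p14, 5′ to 3′ on the strand of the gene. Capitals mark a match, on either strand, to a GATA word (AGATAA, the word AGATAG, the word TGATAA or the word TGATAG) or to the E-box CAGNTG. These are the words that the GATA and bHLH partners of LDB1 complexes are known to bind. The windows are chr19:8413055-8413354 (plus) and chr19:8418102-8418401 (plus) for MARCHF2, chr5:127030509-127030808 (minus) for MARCHF3 and chr10:45594858-45595157 (minus) and chr10:45535322-45535621 (minus) for MARCHF8.
MARCHF2 first start: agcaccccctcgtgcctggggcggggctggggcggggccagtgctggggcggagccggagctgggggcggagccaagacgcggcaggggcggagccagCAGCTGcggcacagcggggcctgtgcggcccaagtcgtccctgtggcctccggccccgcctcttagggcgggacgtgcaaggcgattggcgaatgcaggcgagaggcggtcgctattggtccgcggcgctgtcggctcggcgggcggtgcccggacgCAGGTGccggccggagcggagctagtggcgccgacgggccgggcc
MARCHF2 second start: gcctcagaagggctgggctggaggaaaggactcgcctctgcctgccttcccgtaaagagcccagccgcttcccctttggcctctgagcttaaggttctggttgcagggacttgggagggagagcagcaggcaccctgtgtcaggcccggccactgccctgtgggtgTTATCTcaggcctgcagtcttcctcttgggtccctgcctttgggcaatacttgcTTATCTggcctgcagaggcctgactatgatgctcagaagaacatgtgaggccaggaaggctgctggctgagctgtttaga
MARCHF3: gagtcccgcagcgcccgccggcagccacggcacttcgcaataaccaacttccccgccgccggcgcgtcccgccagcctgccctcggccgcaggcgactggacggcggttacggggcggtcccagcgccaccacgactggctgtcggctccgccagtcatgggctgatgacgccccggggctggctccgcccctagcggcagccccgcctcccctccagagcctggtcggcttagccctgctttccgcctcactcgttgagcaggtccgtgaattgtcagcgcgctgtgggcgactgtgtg
MARCHF8 first start: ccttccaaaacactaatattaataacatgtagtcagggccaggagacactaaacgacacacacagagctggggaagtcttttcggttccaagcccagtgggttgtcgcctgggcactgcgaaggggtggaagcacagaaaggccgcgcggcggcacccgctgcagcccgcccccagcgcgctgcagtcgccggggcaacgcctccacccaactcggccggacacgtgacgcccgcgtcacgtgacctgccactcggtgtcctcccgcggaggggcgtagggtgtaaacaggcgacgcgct
MARCHF8 second start: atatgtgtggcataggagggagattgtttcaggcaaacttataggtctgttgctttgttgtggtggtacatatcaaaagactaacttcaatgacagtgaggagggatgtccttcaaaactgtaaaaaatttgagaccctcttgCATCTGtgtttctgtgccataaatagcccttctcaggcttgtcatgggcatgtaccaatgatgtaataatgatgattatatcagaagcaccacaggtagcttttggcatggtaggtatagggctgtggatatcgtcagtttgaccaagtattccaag

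RefSeq gave 13 windows for 8 members, and no window was available for MARCHF6, the most abundant member. A GATA word was found in 1 of the 13 windows, against 25% of the 35116 windows of all genes. That window was the second start of MARCHF2, which holds TTATCT, the reverse complement of AGATAA, with its first base at -84 and again at -30 from the start. The E-box was found in 7 of the 13 windows, against 49.9% of all windows. In MARCHF2 it stood as CAGCTG at -152 and as CAGGTG at 5 of the first start. The second start of MARCHF8 held it as CATCTG, read on the other strand, at -107. The window of MARCHF3 and that of the first start of MARCHF8 held neither word. E-boxes also stood in windows that are not shown, of MARCHF1, MARCHF7 and MARCHF9, which were all lower in sh-LDB1. A match is a run of letters and not a shown binding site, and a window without one says nothing of a factor. The values deposited per gene do not separate the 2 starts of MARCHF2 or of MARCHF8.

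MARCHF6 (ENSG00000145495, chr5:10353695-10440388, plus strand) encodes the large ligase of the endoplasmic reticulum that removes misfolded proteins and enzymes of sterol synthesis. It was at 31.7 and 32.9 FPKM in sh-NC, against 22.8 and 22.0 FPKM in sh-LDB1, from 5808, 5507, 4146 and 3772 reads. The mean in sh-LDB1 was 69.4% of that in sh-NC, with a log2 difference of -0.51 (SE 0.0473). It had the most reads and the smallest SE of the 7 members, and it stayed the most abundant member in both groups. Its exons share 25 of 11344 bases with MARCHF6-DT on the opposite strand, whose levels were 2.13 and 1.66 FPKM in sh-NC, against 1.11 and 2.49 FPKM in sh-LDB1 and overlapped between groups.

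MARCHF5 (ENSG00000198060, chr10:92291167-92353964, plus strand) encodes the ligase of the mitochondrial outer membrane that acts on fission and fusion proteins. It was at 8.22 and 9.24 FPKM in sh-NC, against 7.26 and 7.68 FPKM in sh-LDB1. Its mean in sh-LDB1 was 85.6% of the control, with a log2 difference of -0.20 (SE 0.0752). The difference was the smallest of the 7 members, and the gap between the groups, from 7.68 to 8.22 FPKM, was narrower than the distance between the 2 controls.

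MARCHF7 (ENSG00000136536, chr2:159712457-159771027, plus strand), also called axotrophin, lacks the clear membrane spans of the other members. It was at 21.0 and 22.9 FPKM in sh-NC, against 14.4 and 13.2 FPKM in sh-LDB1, from 2136, 2119, 1446 and 1256 reads. Its mean in sh-LDB1 was 62.8% of the control, and its log2 difference of -0.63 (SE 0.0693) was the largest downward one of the 7 members. Its exons share 2400 of 6288 bases (38.2%) with CD302 on the opposite strand, and the use of strand in the counting was not given in the sources used here. CD302 itself was at 0.0152 and 0 FPKM in sh-NC, against 0.0919 and 0.0162 FPKM in sh-LDB1, from 1, 0, 6 and 1 reads. MARCHF10 (ENSG00000173838, chr17:62701314-62808344, minus strand), the close relative of MARCHF7, had 0 reads in both controls and 1 and 2 reads after knockdown, all below the 3 reads that a count of 0 allows, so no fold is given.

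MARCHF9 (ENSG00000139266, chr12:57755103-57760411, plus strand) encodes a Golgi and endosomal ligase known to act on MHC class I and ICAM1. It was at 4.32 and 3.64 FPKM in sh-NC, against 2.48 and 2.72 FPKM in sh-LDB1, from 280, 215, 159 and 165 reads. Its mean in sh-LDB1 was 65.3% of the control, with a log2 difference of -0.47 and the largest SE of the 7 members, 0.102. The 2 controls lay further apart than the 2 sh-LDB1 libraries, and the groups did not overlap. The gene body overlaps that of CDK4, a cell cycle kinase, on the opposite strand, with 0 shared exon bases. CDK4 was at 41.8 and 39.0 FPKM in sh-NC, against 26.4 and 26.1 FPKM in sh-LDB1 (log2 difference -0.60, SE 0.0511, limma adjusted p = 0.000740).

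**Figure D2:**
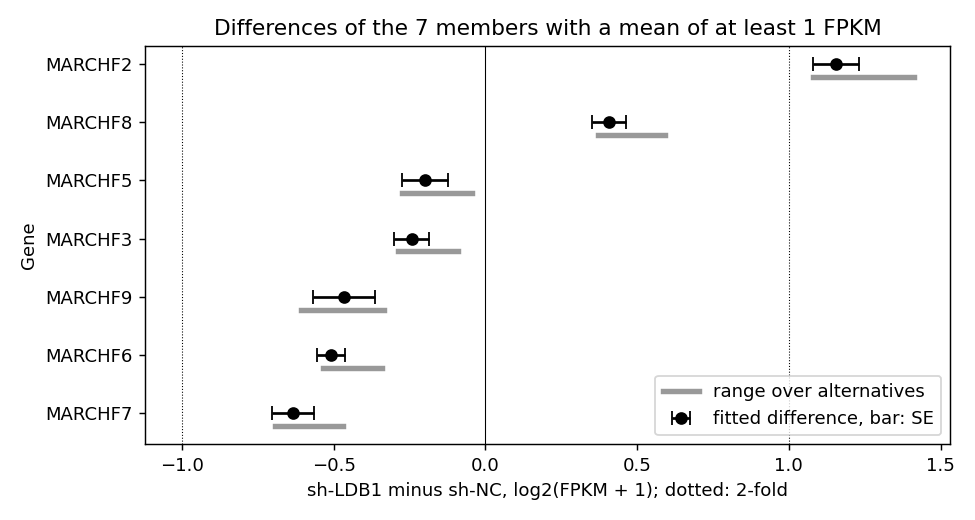
Difference of each member between sh-LDB1 and sh-NC on the log2(FPKM + 1) scale (horizontal axis) for the 7 members that averaged 1 FPKM or more, with points for the fitted difference, bars for its SE and grey lines for the range over the other processing settings tried. MARCHF2 at 1.16 and MARCHF8 at 0.41 lie to the right of 0 and the other 5 lie to the left, and MARCHF2 alone lies past the dotted line of a 2-fold change.

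The make-up of the family differed between the groups, while the size of the difference in its sum depended on the scaling. The summed level of the 9 rows was 87.2 and 92.6 FPKM in sh-NC and 78.0 and 77.6 FPKM in sh-LDB1. This was 86.5% of the control by the deposited scaling, 92.8% with a median of ratios over expressed genes and 97.5% with equal FPKM sums. With equal FPKM sums the libraries overlapped, at 82.4 and 87.3 against 82.4 and 83.1 FPKM. The shares of the members do not depend on the scaling. MARCHF2 made up 6.52% and 6.94% of the family in sh-NC, compared with 18.2% and 19.6% in sh-LDB1. MARCHF8 went from 7.14% and 7.12% to 11.4% and 11.3%. The share of MARCHF6 was 36.3% and 35.6% in sh-NC, compared with 29.3% and 28.3% in sh-LDB1. MARCHF7 had 24.1% and 24.7% of the family in sh-NC, compared with 18.4% and 17.0% in sh-LDB1. The shares of MARCHF3 and MARCHF5 lay close together in all 4 libraries, between 9.31% and 10.2%. MARCHF9 and MARCHF1 were the smaller parts, with MARCHF1 at 1.46% and 1.54% in sh-NC, compared with 0.553% and 0.499% in sh-LDB1.

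**Figure D3:**
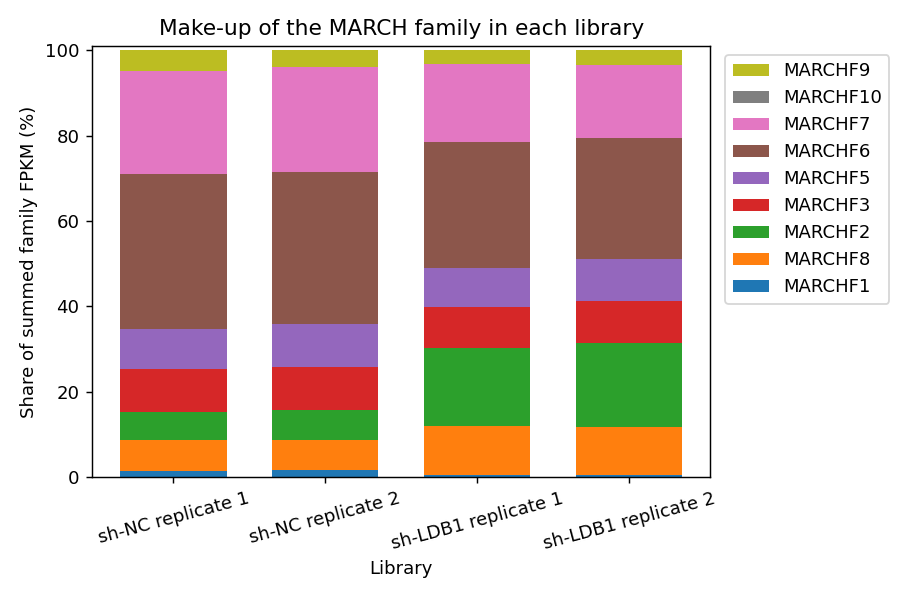
Share of the summed FPKM of the family (vertical axis, %) that each MARCH gene takes in each of the 4 libraries (stacked bars). The share of MARCHF2 is 6.52% and 6.94% in sh-NC, compared with 18.2% and 19.6% in sh-LDB1, while the shares of MARCHF6 and MARCHF7 are smaller in sh-LDB1.

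The choice of scaling bears on the smaller differences. The median difference of all tested genes was -0.08 on the log2 scale as deposited and 0.06 with equal FPKM sums. With equal FPKM sums MARCHF3 was at -0.09 and MARCHF5 at -0.04, so both were below the median of all genes under either scaling, but close to 0 under the second. Under that scaling the 4 largest differences were 1.31 for MARCHF2, 0.56 for MARCHF8, -0.34 for MARCHF6 and -0.47 for MARCHF7. No member changed direction.

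To place the family beside its pathway, 3 lists of related genes were examined. The first held the 34 E2 enzymes. All were in the table and 32 were tested, of which 4 rose and 1 fell by more than 2-fold, and by the adjusted p alone 10 rose and 13 fell. Of all tested genes, 9.5% were called higher and 10.3% lower by more than 2-fold. Together 71.9% passed the adjusted p, beside 67.4% of all tested genes, and the median difference was -0.12, beside -0.08 for all genes. UBE2D2, of the UBE2D group that works with most RING ligases, fell from 46.9 and 41.2 FPKM to 19.0 and 19.4 FPKM (log2 difference -1.15, SE 0.0741, limma adjusted p = 0.000354). With equal FPKM sums this was -0.99 and no longer past 2-fold. UBE2D1 and UBE2D4 did not pass the test. UBE2D1 was at 4.72 and 6.40 FPKM and then at 5.89 and 6.22 FPKM (adjusted p = 0.492 by limma), and UBE2D4 was at 2.12 and 1.68 FPKM and then at 1.64 and 1.63 FPKM (adjusted p = 0.374 by limma). UBE2D3 was at 21.3 and 21.9 FPKM and then at 24.5 and 23.8 FPKM, with a limma adjusted p of 0.0363. It lost the threshold with a replicate block (limma adjusted p = 0.0776) and without the variance trend (limma adjusted p = 0.078). The same held in each fit without 1 library.

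The E2 enzymes of the endoplasmic reticulum differed among themselves. UBE2G2, a partner of several ligases there, fell from 31.2 and 31.6 FPKM to 17.4 and 18.4 FPKM (log2 difference -0.78, SE 0.0484, limma adjusted p = 0.000327). UBE2J2, a membrane-anchored E2, fell from 20.1 and 19.3 FPKM to 13.4 and 13.97 FPKM (log2 difference -0.49, SE 0.0504, limma adjusted p = 0.00128). UBE2J1, its relative, was at 19.8 and 21.2 FPKM in sh-NC, against 19.9 and 20.01 FPKM in sh-LDB1 (limma adjusted p = 0.575), and its groups overlapped. The 2 falls were both under 2-fold.

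The 4 E2 genes that rose by more than 2-fold are best known for work with other ligases or other modifiers. UBE2L6, which conjugates the ubiquitin-like protein ISG15, rose from 16.3 and 15.7 FPKM to 34.8 and 39.9 FPKM (limma adjusted p = 0.000388). UBE2M, which conjugates NEDD8, rose from 50.3 and 43.9 FPKM to 95.8 and 100.9 FPKM (log2 difference 1.05, limma adjusted p = 0.000528), and without sh-NC replicate 2 its log2 difference was 0.95, under 2-fold, which left 3 E2 genes. UBE2B, which acts with RAD18 at stalled replication forks, rose from 18.3 and 19.0 FPKM to 40.3 and 42.7 FPKM (limma adjusted p = 0.000170). UBE2C, the E2 of the anaphase-promoting complex, rose from 0.384 and 0.475 FPKM to 2.23 and 2.06 FPKM (limma adjusted p = 0.00195), from 8 and 9 reads to 46 and 40. Its controls lay under 1 FPKM, so it passed the filter only through its sh-LDB1 libraries, and with a filter at 5 FPKM it was not tested.

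The second list held 38 other RING ligases anchored in membranes, of which 31 were in the table and 29 were tested. By more than 2-fold on the log2(FPKM + 1) scale 1 rose and 1 fell, beside 9.5% and 10.3% of all tested genes, and by the adjusted p alone 12 rose and 13 fell. By the ratio of mean FPKM, other tested genes of the list also passed 2-fold, in both directions. SYVN1, a ligase of the endoplasmic reticulum like MARCHF6, was the gene called higher. It went from 14.1 and 15.2 FPKM to 52.0 and 52.7 FPKM (log2 difference 1.77, SE 0.0530, limma adjusted p = 9.12e-05). SYVN1 lay below MARCHF6 in both sh-NC libraries and above it in both sh-LDB1 libraries. The share past the adjusted p was 86.2%, beside 67.4% of all tested genes, and the median difference was -0.15.

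The third list held 39 reported targets of MARCH ligases, of which 31 were in the table and 22 were tested. By more than 2-fold 1 rose and 3 fell, while 9.5% of all tested genes were called higher and 10.3% lower. By the adjusted p alone 7 rose and 8 fell, which is 68.2% of those tested, beside 67.4% of all tested genes. The list thus lay near the share of all genes by the adjusted p. ICAM1, an adhesion receptor reported as a target of MARCHF9, rose from 9.07 and 9.31 FPKM to 35.7 and 35.3 FPKM (log2 difference 1.84, SE 0.0441, limma adjusted p = 7.35e-05). TFRC, the transferrin receptor and a reported target of MARCHF8, fell from 128.4 and 133.4 FPKM to 60.2 and 59.6 FPKM (log2 difference -1.12, SE 0.0413, limma adjusted p = 0.000120). DNM1L, the fission protein reported as a target of MARCHF5, fell from 14.3 and 14.95 FPKM to 4.82 and 4.28 FPKM (log2 difference -1.50, SE 0.0713, limma adjusted p = 0.000179). STX6, the syntaxin tied to MARCHF2, fell from 6.46 and 6.39 FPKM to 2.63 and 2.59 FPKM (log2 difference -1.04, SE 0.0628, limma adjusted p = 0.000303). With equal FPKM sums, TFRC was at -0.94 and STX6 at -0.90, both under 2-fold. These are RNA levels, and ubiquitin ligases act on the proteins, which were not measured in these files.

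**Figure D4:**
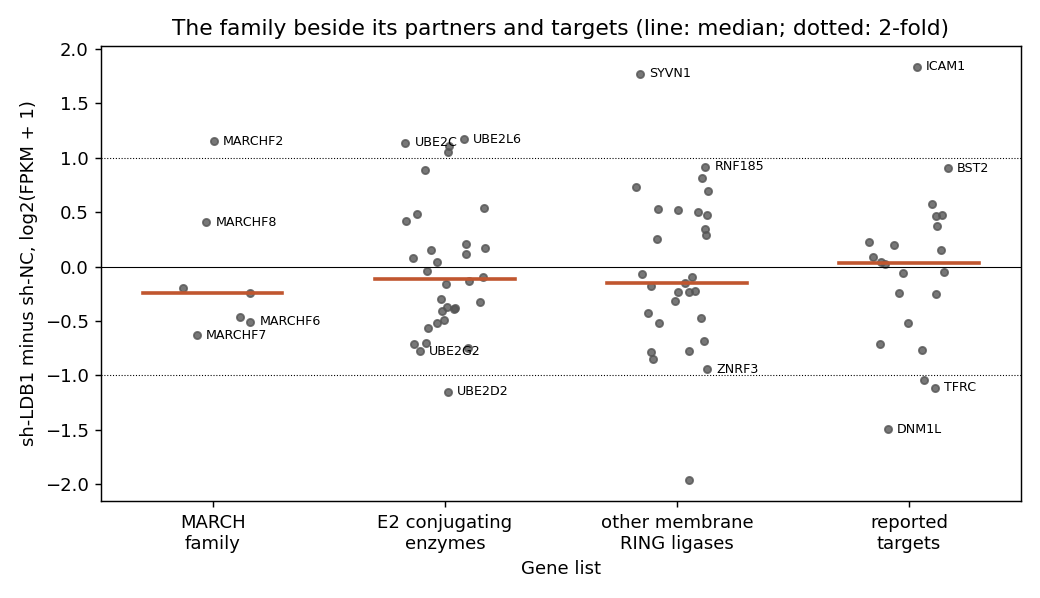
Difference between sh-LDB1 and sh-NC on the log2(FPKM + 1) scale (vertical axis) for the tested genes of the MARCH family, the E2 enzymes, the other membrane RING ligases and the reported targets (points), with the median of each as a line. The medians of the 3 lists lie at -0.12, -0.15 and 0.03, and single genes such as SYVN1 at 1.77 and DNM1L at -1.50 lie past the dotted lines of a 2-fold change.

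The genes whose pattern over the 4 libraries was most like that of MARCHF2 and MARCHF7 were found by the Euclidean distance between centred log2(FPKM + 1) values, among 4838 genes that averaged 10 FPKM or more. Nearest to MARCHF2 were TAPBP, KLF10 and TRIM4, at distances of 0.00675, 0.0369 and 0.0438. TAPBP, which encodes tapasin of the MHC class I loading complex, was at 15.6 and 17.5 FPKM in sh-NC, against 36.6 and 39.2 FPKM in sh-LDB1. Nearest to MARCHF7 were EIF5B, ATP11B and PGM2, at 0.0307, 0.0317 and 0.0372. EIF5B, a translation initiation factor, was at 34.0 and 36 FPKM in sh-NC, against 23.0 and 21.6 FPKM in sh-LDB1. These genes were picked for their likeness over only 4 libraries, so their values are a description.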

How the data were processed

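RNA-seq of 2 sh-NC and 2 sh-LDB1 libraries of cells labelled NB4 was analysed. Total RNA had been extracted with Trizol and made into libraries with a TruSeq kit. The authors mapped the reads with HISAT2 2.0.5 (submitters' processing notes, which name hg38), called changed genes with DESeq2 and deposited 1 table of FPKM, with 1 value per gene and library. The counting tool, annotation and use of strand were not given in the sources used here. The table had 0 columns of values that belonged to no sample.

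Of 28412 identifiers, 28193 were found in GENCODE on GRCh38, which gave symbols and coordinates. Reads were recovered as whole multiples of what 1 read is worth. For 99.2% of genes all 4 values came out whole, within 0.001 of a read, and the absolute totals rest on the fitted gene lengths. The FPKM sums were between 281397.4 and 319686.7. Replicates differed by more than counting noise, and the chi-square divided by the number of genes was 4.95 for sh-NC and 2.46 for sh-LDB1.

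Genes that averaged 1 FPKM or more were fitted on log2(FPKM + 1) with limma 3.58.1 in R 4.3.3, with a variance trend, no block and Benjamini-Hochberg adjustment over all 13300 genes. A call needed an adjusted p below 0.05 and a change over 2-fold on the log2(FPKM + 1) scale. The genes named were LDB1, all MARCH rows and the rows sharing their date names, the 4 largest called rises and falls of each list, all UBE2D and UBE2J genes with UBE2G2, and the 3 nearest patterns to the members with the largest difference in each direction. A gene of the membrane RING list that met this rule is not reported here. Genes overlapping a member, and HBZ, ELANE, MS4A3, ITGAM, LYZ, CSF3R, PRTN3, AZU1, CEBPE, FUT4 and CD33 of the marker lists, were added for the checks. Members, lists and tests were chosen with earlier results of these data known. Promoter windows came from RefSeq (GRCh38.p14). Python 3.11.15, numpy 2.4.6, pandas 2.3.3 and matplotlib 3.10.9 were used for the other steps. The alternatives were other pseudocounts, filters and scalings, voom on the recovered reads, a fit without the variance trend, a replicate block, no fold threshold, and leaving out each library.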

Additional observations from a re-analysis of the deposited data

How the results depend on the processing

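No MARCH member changed direction in 90 recomputed differences, and 25 of them moved by more than 1 SD. Most of the 90 could not have changed direction. Other filters, the replicate block and the fit without the variance trend leave the estimated difference as it was. Other pseudocounts, or leaving out a library, cannot reverse groups that do not overlap, and no tested member had overlapping groups. Only the other scalings and voom could have reversed a direction, and they did not. MARCHF2 ranged from 1.08 (without sh-NC replicate 1) to 1.41 (voom), and MARCHF8 from 0.37 to 0.59. The members past the adjusted p alone were 2 higher and 4 lower. The lower ones were 3 with equal FPKM sums, the median of ratios, voom or a mean of at least 5 FPKM, and also without sh-NC replicate 2, and 2 without sh-LDB1 replicate 1 or replicate 2. Without sh-NC replicate 1 there were 4, with MARCHF5 in and MARCHF9 out. MARCHF3 was not past it under either other scaling, with voom, without sh-NC replicate 2 or without either sh-LDB1 library, MARCHF9 was not past it without sh-NC replicate 1 or either sh-LDB1 library, and the filter at 5 FPKM leaves MARCHF9 out.

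Over all genes, 1264 were called higher and 1371 lower. The higher calls were 710 with a mean of at least 5 FPKM and 2095 with voom. Without the fold threshold the calls were 3983 and 4978. The lower share of the calls was 52% as deposited, 38.5% with equal FPKM sums (1602 higher, 1001 lower) and 41.5% with voom. The median difference of all genes was -0.08, 0.06 and 0.04 in the same order. For E2 enzymes the calls were 10 and 13 without the fold threshold, and 0 lower with equal FPKM sums. Of the membrane RING ligases, 3 were called higher with a pseudocount of 0.1, 4 with 0.01, 2 with equal FPKM sums, 2 with the median of ratios, 4 with voom and 12 without the fold threshold. The lower ones were 2 with either pseudocount or voom and 13 without the fold threshold. Leaving out a library gave 1 to 2 in each direction, with 2 higher without sh-NC replicate 1 and 2 lower without sh-LDB1 replicate 2. Of the reported targets, 2 were called higher with equal FPKM sums, the median of ratios or voom, and 7 without the fold threshold, while 1 was called lower with equal FPKM sums and 8 without the fold threshold. The cause of these shifts was not tested.

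A replicate block gave 1274 higher and 1386 lower calls, with 1 MARCH member higher and 0 lower. The correlation of the deviations of same-numbered libraries was 0.0196 over 2 pairs. So few pairs cannot show whether same-numbered libraries were prepared together, and the sources used here do not state it. The block changed no call of a member. Where a library was left out, the lone sample was assumed to vary like the others. MARCHF10 had under 3 reads in every library, so no difference is given for it.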
